A study of Mus musculus with 11 samples.

Results

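Type I interferon signalling was followed in primary mouse microglia, the resident macrophages of the brain, through 9 of its genes: the receptor chains Ifnar1 and Ifnar2, the signal transducers Stat2 and Stat3, and the interferon regulatory factors Irf1, Irf3, Irf5, Irf7 and Irf9. The 9 genes were the rows with these symbols among the 16934 genes of a count table made by 3′ mRNA sequencing, which counts tags near the end of each transcript. In 4 libraries, microglia had been kept for 6 h with primary cortical neurons of 14 days in vitro that had first taken up Atto488-labelled α-synuclein fibrils, at 0.1 µM for 16 h, and had then been washed. In 3 libraries the microglia had been kept with untreated neurons, and 4 libraries came from microglia alone. Every library was of C57BL/6 microglia taken at postnatal days 0 to 3 and cultured for 7 to 10 days. No genotype or interferon treatment is named for any group. The labels name no separate cultures or animals for the libraries of a group, so a p-value here sets a difference against the spread of these samples alone, and that spread may be technical.

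Type I interferon binds a receptor made of the Ifnar1 and Ifnar2 chains, and the kinases Tyk2 and Jak1 on these chains then phosphorylate STAT proteins. Phosphorylated Stat2 works with Irf9 in the complex called ISGF3, which binds interferon-stimulated response elements and drives antiviral genes. Irf3 and Irf5 are present in resting cells and are activated by pattern recognition pathways, while Irf7 and Irf1 are themselves interferon-induced, and Stat3 is mainly known as the transducer of the IL-6 and IL-10 families. Microglia use this pathway in antiviral defence, and its activity is also known from ageing and amyloid models.

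Total counts ran from 8253070 to 16802451 and genes detected from 9157 to 11739 per library, with 11276 genes tested. The median correlation of log2 levels was 0.74 for pairs of libraries of the same group and 0.71 for pairs of different groups. The ribosomal transcript Rn45s took 10.97% to 17.0% of counts with fibril-loaded neurons, 10.7% to 15.7% with untreated neurons and 14.0% to 24.8% in microglia alone. All 13 microglia and macrophage markers were detected in each group, and their summed level was 17157 to 22937 CPM (counts scaled to library size) with fibril-loaded neurons, 19385 to 22906 CPM with untreated neurons and 16423 to 17526 CPM in microglia alone. The 13 neuron markers summed to 8.63 to 46.2 CPM, 1.07 to 30.1 CPM and 80.2 to 180 CPM in the same order of groups. Snap25 was at 0 in every library. The highest sums were those of microglia alone, where Dcx, at a mean of 48.6 CPM, was the largest part. Oligodendrocyte lineage markers summed to 124 to 245 CPM with fibril-loaded neurons, 199 to 246 CPM with untreated neurons and 115 to 176 CPM in microglia alone, and astrocyte markers to 10.5 to 106 CPM, 12.03 to 88.9 CPM and 10.6 to 32.1 CPM in the same order. The other 3 of the 7 marker lists summed to at most 36.1 CPM in any library. In exact two-sided permutation tests of these sums, neuron markers in both co-cultures and microglia markers with untreated neurons reached p = 0.0286 against microglia alone, the smallest p that these group sizes allow. BH adjustment over the 21 tests gave 0.200 for these, and with so small a design the adjusted values could hardly pass. The part of these differences in the interferon genes was not tested.

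All 9 genes passed the filter on low counts, and the lowest count of any of them in a library was 98, for Irf3. Their mean level over the 11 libraries ran from 30.1 CPM for Irf3 to 279 CPM for Ifnar2, against a median of 20.9 CPM for the tested genes. The 3′ kit gives about 1 tag per transcript, so the levels of different genes were compared in CPM without division by length. Ifnar2 was first and Irf3 last by mean level in every group. Ifnar1 was at position 2 in both co-cultures and at position 5 in microglia alone, where its 90.1 ± 34.9 CPM (SD, n = 4) lay within the spread of Irf5, Irf9 and Irf1 at 95.6, 94.1 and 88.2 CPM. The step below Ifnar2 was the one step whose ranges did not overlap in both co-cultures. The step above Irf3 was also clear with untreated neurons, and no step was clear in microglia alone.

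**Figure D1:**
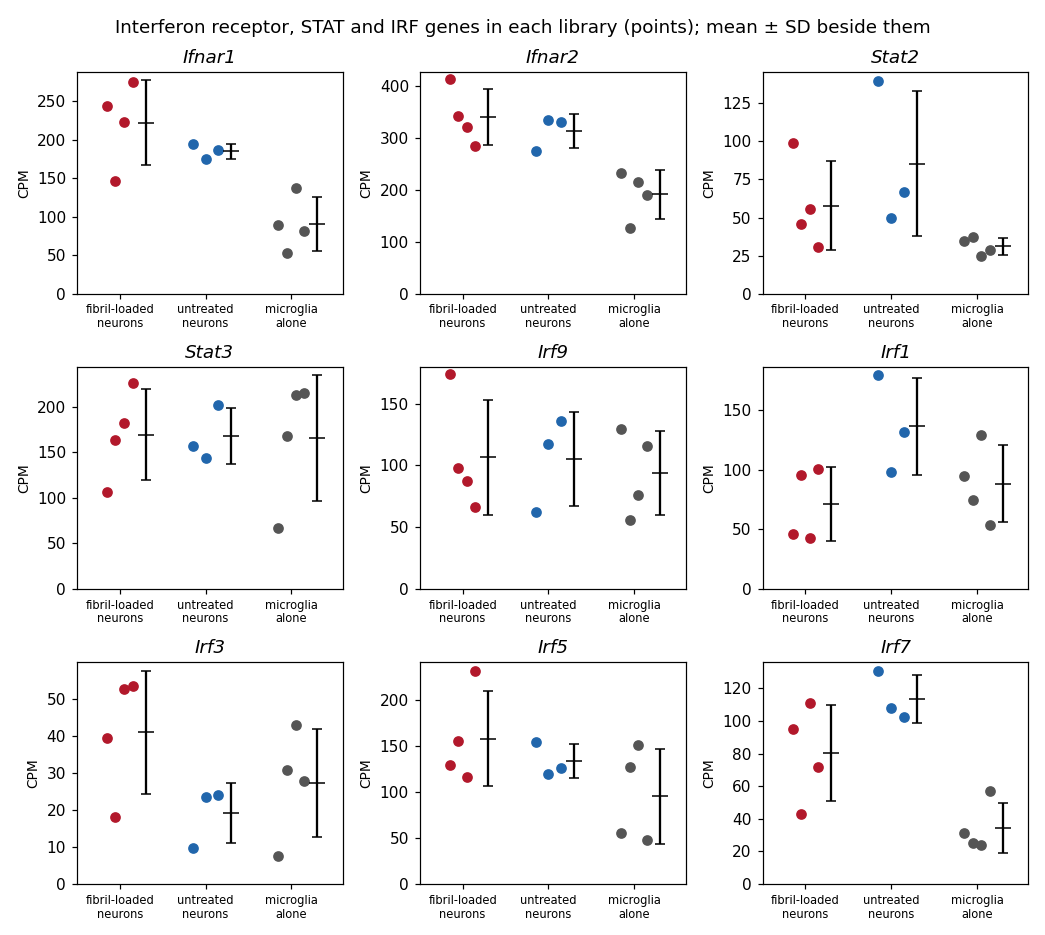
Level of each of the 9 genes in CPM (vertical axis, linear, from 0) in every library, with fibril-loaded neurons (n = 4), untreated neurons (n = 3) and microglia alone (n = 4). Points are libraries and bars show mean ± SD. The Ifnar1 and Ifnar2 points of both co-cultures lie above all 4 points of microglia alone, while those of Stat3 and Irf9 overlap across the 3 groups.

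The 4 largest fold changes of both co-cultures against microglia alone were those of Irf7, Ifnar1, Stat2 and Ifnar2, and the promoters of Ifnar1, Ifnar2, Stat2 and Irf7 are therefore shown. That of Irf1 is shown as the gene with the smallest p between the 2 co-cultures. RefSeq promoter windows, from 250 bases before to 50 bases after the start, were found for 9 of the 9 genes on build GRCm38.p6, with 11 windows in all. Each is given 5′ to 3′ on the strand of its gene, and capitals mark a match to the core of the interferon-stimulated response element, GAAANNGAA, or to the gamma-activated site bound by STAT dimers, TTCNNNGAA, both searched on both strands.
Stat2, chr10:128270248-128270547, plus strand: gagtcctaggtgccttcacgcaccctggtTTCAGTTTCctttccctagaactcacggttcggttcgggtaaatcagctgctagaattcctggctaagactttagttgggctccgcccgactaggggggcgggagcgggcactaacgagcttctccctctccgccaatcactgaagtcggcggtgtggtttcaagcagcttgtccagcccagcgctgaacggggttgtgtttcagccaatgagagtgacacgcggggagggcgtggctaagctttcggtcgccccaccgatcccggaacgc
Irf1, chr11:53769764-53770063, plus strand: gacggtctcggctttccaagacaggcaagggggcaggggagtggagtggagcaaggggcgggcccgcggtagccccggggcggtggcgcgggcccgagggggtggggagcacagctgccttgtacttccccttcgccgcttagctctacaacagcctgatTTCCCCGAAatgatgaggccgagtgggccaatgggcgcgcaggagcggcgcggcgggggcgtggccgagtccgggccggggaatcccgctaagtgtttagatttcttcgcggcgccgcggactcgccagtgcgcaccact
Ifnar1, chr16:91484965-91485264, plus strand: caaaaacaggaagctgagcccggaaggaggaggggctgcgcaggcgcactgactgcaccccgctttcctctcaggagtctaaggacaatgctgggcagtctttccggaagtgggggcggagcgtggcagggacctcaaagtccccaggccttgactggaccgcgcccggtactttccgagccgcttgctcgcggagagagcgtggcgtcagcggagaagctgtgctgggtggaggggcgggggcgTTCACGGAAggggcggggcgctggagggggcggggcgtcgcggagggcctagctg
Ifnar2, chr16:91372533-91372832, plus strand: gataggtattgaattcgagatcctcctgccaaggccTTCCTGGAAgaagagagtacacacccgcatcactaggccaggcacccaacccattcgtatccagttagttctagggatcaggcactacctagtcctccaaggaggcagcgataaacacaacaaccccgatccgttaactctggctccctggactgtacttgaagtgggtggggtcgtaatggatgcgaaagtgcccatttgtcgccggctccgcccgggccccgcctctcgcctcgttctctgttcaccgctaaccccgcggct
Irf7, chr7:141266375-141266674, minus strand: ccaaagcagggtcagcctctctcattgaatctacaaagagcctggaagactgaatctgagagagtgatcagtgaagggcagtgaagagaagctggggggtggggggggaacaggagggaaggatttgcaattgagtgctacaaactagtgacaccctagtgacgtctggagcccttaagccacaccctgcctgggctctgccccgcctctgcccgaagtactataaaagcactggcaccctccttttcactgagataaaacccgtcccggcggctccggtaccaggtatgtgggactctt
The Stat2 window held a response element core on the reverse strand, whose first base lies at -221 from the start. Gamma-activated sites began at -90 in the Irf1 window, at -5 in that of Ifnar1 and at -214 in that of Ifnar2. These positions count from the RefSeq start, while the gene positions given below are from GENCODE, and the starts can differ. The Stat2 window ends at 128270547, before the GENCODE start of Stat2 at 128270559. The letters of both motifs were absent from the windows of Irf7, Stat3, Irf3, Irf5 and Irf9. Of 32851 promoter windows of the same length, 8.56% hold the response element core and 8.30% the gamma-activated site. A match in these letters is a description of the sequence and no measurement of binding.

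Between co-cultures and microglia alone, 8 of the 9 log2 fold changes were positive with fibril-loaded neurons and 8 with untreated neurons, against 47.9% and 47.7% of all tested genes. The median of the 9 was 0.73 with fibril-loaded and 0.63 with untreated neurons, beside -0.04 and -0.05 for all tested genes. None of the 9 passed edgeR's quasi-likelihood test with BH adjustment over all tested genes at 0.05, in either comparison. The same rule called 0.319% of tested genes with fibril-loaded neurons and 0.639% with untreated neurons. At an unadjusted p below 0.05, 3 of the 9 were higher with fibril-loaded neurons and 4 with untreated neurons, against 4.25% and 4.66% of tested genes. DESeq2 called 2 of the 9 with fibril-loaded neurons and 1 with untreated neurons, and limma on the normalized table called 0 in both. Among all genes DESeq2 called 273 and 503 and limma 40 and 81, in the same order, where edgeR called 36 and 72. Both comparisons use the same 4 libraries of microglia alone. In bulk RNA, more cells of a responding kind and more RNA per cell cannot be told apart.

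With all 7 co-culture libraries set against the 4 of microglia alone, 9 of the 9 log2 fold changes were positive, with a median of 0.61 beside -0.09 for all tested genes. The adjusted rule called 0 of the 9 and 1.03% of tested genes. The smallest adjusted p of edgeR was 0.0525 for Ifnar1, followed by 0.0530 for Irf7. At an unadjusted p below 0.05, 4 of the 9 were higher, against 5.12% of tested genes. DESeq2 called 3 of the 9, Ifnar1, Irf7 and Ifnar2, and limma on the normalized table called Ifnar1 and Irf7. Among all genes DESeq2 called 583 and limma 164, where edgeR called 116.

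The receptor chains were the genes of the 9 whose libraries lay apart in all 3 comparisons with microglia alone. Ifnar1, the chain that carries Tyk2, lies at chr16:91485238-91507441 on the plus strand. It had 244, 147, 223 and 275 CPM with fibril-loaded neurons, 194, 174 and 186 CPM with untreated neurons, and 88.7, 53.5, 137 and 81.0 CPM in microglia alone. The lowest co-culture library stood just above the highest library of microglia alone, and the untreated-neuron libraries lay close together. The log2 fold change was 1.30 (SE 0.31, 95% interval 0.65 to 1.95, edgeR adjusted p = 0.100) with fibril-loaded neurons against microglia alone. With untreated neurons against microglia alone it was 1.04 (SE 0.33, interval 0.35 to 1.73, edgeR adjusted p = 0.206).

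Ifnar2, the high-affinity ligand-binding chain, lies on the same chromosome as Ifnar1, at chr16:91372783-91405589 on the plus strand. Its levels were 414, 342, 321 and 285 CPM with fibril-loaded neurons, 276, 335 and 331 CPM with untreated neurons, and 233, 127, 216 and 190.5 CPM in microglia alone. Gm21970, annotated on the same strand, covers the 3′ end of Ifnar2, and how tags from the shared end were assigned is not given in the sources used here. In Ifnar2, too, every co-culture library lay above every library of microglia alone, while the co-cultures overlapped each other. Against microglia alone its log2 fold change was 0.83 (SE 0.26, edgeR adjusted p = 0.275) with fibril-loaded neurons and 0.71 (SE 0.28, edgeR adjusted p = 0.389) with untreated neurons. Over both co-cultures it was 0.77 (interval 0.27 to 1.27, edgeR adjusted p = 0.148).

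By this measure of separation, 2 of the 9 genes were higher without overlap with fibril-loaded neurons, against 2.70% of tested genes, and the same 2 over both co-cultures together, against 1.21%. With untreated neurons 4 of the 9 were, Ifnar1, Ifnar2, Stat2 and Irf7, against 4.90% of tested genes. The ratio of Ifnar2 to Ifnar1 counts within a library, which needs no scaling, was 1.04 to 2.33 with fibril-loaded neurons, 1.43 to 1.92 with untreated neurons and 1.57 to 2.63 in microglia alone, so the 3 groups overlapped.

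Among the signal transducers, Stat2 and Stat3 differed in pattern. Stat2, the ISGF3 subunit, lies at chr10:128270559-128292849 on the plus strand. It had 98.7, 46.0, 55.6 and 30.5 CPM with fibril-loaded neurons, 140, 49.8 and 66.6 CPM with untreated neurons, and 34.5, 37.0, 24.8 and 28.7 CPM in microglia alone. All 3 untreated-neuron libraries lay above microglia alone, whereas the lowest fibril library fell inside the range of microglia alone, and library 1 was the highest in each co-culture. The log2 fold change was 0.88 (SE 0.44, interval -0.04 to 1.81, edgeR adjusted p = 0.659) with fibril-loaded neurons, and 1.45 (SE 0.47, interval 0.47 to 2.44, edgeR adjusted p = 0.223) with untreated neurons, both against microglia alone. In both co-cultures and in microglia alone, library 1 was the library of its group with the fewest genes detected. With these 3 libraries left out, which was chosen after the data were seen, the Stat2 values were 0.56 and 0.97 in the same order.

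Stat3 showed no such separation. Its levels were 106, 164, 182 and 226 CPM with fibril-loaded neurons, 157, 143 and 202 CPM with untreated neurons, and 67.1, 168, 214 and 215 CPM in microglia alone. The 3 group means, 169.6, 168 and 166 CPM, differed by less than the SD of any of them. The interval of the log2 fold change was -0.68 to 0.74 with fibril-loaded neurons and -0.75 to 0.78 with untreated neurons, both against microglia alone. Differences of up to about that size, in either direction, thus lie within the intervals. Stat5a, which ends on the opposite strand over the 3′ end of Stat3, averaged 5.79, 11.5 and 5.82 CPM.

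Irf9, the DNA-binding subunit of ISGF3, was likewise spread within each group. It had 174, 98.1, 87.5 and 66.1 CPM with fibril-loaded neurons, 62.3, 117 and 136 CPM with untreated neurons, and 129, 55.6, 76.2 and 115 CPM in microglia alone. The 3 ranges overlapped, and the log2 fold change against microglia alone was 0.18 (interval -0.60 to 0.95, edgeR adjusted p = 1.00) with fibril-loaded neurons and 0.16 (interval -0.68 to 1.00, edgeR adjusted p = 0.997) with untreated neurons. Thus of the 2 ISGF3 subunits among the 9 genes, Stat2 had an unadjusted interval above 0 with untreated neurons, 0.47 to 2.44, and Irf9 did not. These 2 intervals overlapped, both genes had intervals that held 0 with fibril-loaded neurons, and the difference between the genes was not tested. Rnf31, annotated on the same strand, ends within Irf9 but does not reach its 3′ end. It averaged 9.15 CPM with fibril-loaded neurons, 5.42 CPM with untreated neurons and 14.2 CPM in microglia alone.

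Irf7, which amplifies type I interferon production after its own induction, lies at chr7:141262706-141266481 on the minus strand. It had 95.2, 43.1, 111 and 72.0 CPM with fibril-loaded neurons, 131, 108 and 103 CPM with untreated neurons, and 31.1, 25.4, 23.9 and 57.4 CPM in microglia alone. The untreated-neuron libraries lay above all 4 of microglia alone, and fibril library 2 lay below the highest of microglia alone. Its log2 fold change was 1.22 (SE 0.39, interval 0.41 to 2.03, edgeR adjusted p = 0.279) with fibril-loaded neurons against microglia alone. With untreated neurons against microglia alone it was 1.72 (SE 0.42, interval 0.86 to 2.59, edgeR adjusted p = 0.0614). Over both co-cultures Irf7 averaged 94.6 ± 28.8 CPM (n = 7), against 34.4 ± 15.6 CPM (n = 4) in microglia alone, a log2 fold change of 1.47 (interval 0.72 to 2.23).

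Phrf1 ends on the opposite strand over the 3′ end of Irf7, and whether the authors' counting used strand is not given in the sources used here. Phrf1 averaged 84.5, 54.7 and 62.6 CPM with fibril-loaded neurons, with untreated neurons and in microglia alone, with edgeR adjusted p of 1.00 and 0.997 against microglia alone. Its log2 fold change against microglia alone was 0.43 with fibril-loaded neurons, of the same sign as that of Irf7, and -0.19 with untreated neurons, of the other sign. The part of Phrf1 tags in the Irf7 counts was not tested. The ratio of Irf7 to Irf9 counts was 0.44 to 1.27 with fibril-loaded neurons, 0.75 to 2.09 with untreated neurons and 0.24 to 0.50 in microglia alone. The untreated-neuron libraries did not overlap microglia alone in this ratio, and 1 fibril library did.

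Irf5, a factor of Toll-like receptor signalling in macrophages, had 129, 156, 116 and 232 CPM with fibril-loaded neurons, 155, 120 and 127 CPM with untreated neurons, and 55.4, 128, 151 and 48.2 CPM in microglia alone. Libraries 1 and 4 of microglia alone lay below every co-culture library, and libraries 2 and 3 lay among them. The log2 fold change against microglia alone was 0.73 (interval -0.03 to 1.49, edgeR adjusted p = 0.659) with fibril-loaded and 0.49 (interval -0.32 to 1.30, edgeR adjusted p = 0.815) with untreated neurons. Tnpo3, on the opposite strand over the 3′ end of Irf5, averaged 117, 104 and 129 CPM in the same order of groups.

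Irf3, the constitutive factor that starts interferon beta transcription, was the least abundant of the 9. It had 39.4, 18.2, 52.7 and 53.6 CPM with fibril-loaded neurons, 9.74, 23.5 and 24.1 CPM with untreated neurons, and 7.67, 30.8, 43.0 and 27.8 CPM in microglia alone. The groups overlapped, and the widest interval of the 9 genes was its own, -0.71 to 1.88 with fibril-loaded neurons and -1.93 to 0.90 with untreated neurons, against microglia alone.

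Irf1, an interferon gamma-induced activator of antigen presentation genes, had 46.1, 95.2, 42.3 and 101 CPM with fibril-loaded neurons, 179, 98.2 and 131 CPM with untreated neurons, and 94.7, 74.8, 129 and 53.7 CPM in microglia alone. Libraries of the 3 groups overlapped. Against microglia alone the log2 fold change was -0.31 (SE 0.37, edgeR adjusted p = 1.00) with fibril-loaded neurons and 0.63 (SE 0.40, edgeR adjusted p = 0.665) with untreated neurons. It was the one gene of the 9 with a negative value with fibril-loaded neurons, and Irf3 was the one with untreated neurons.

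**Figure D2:**
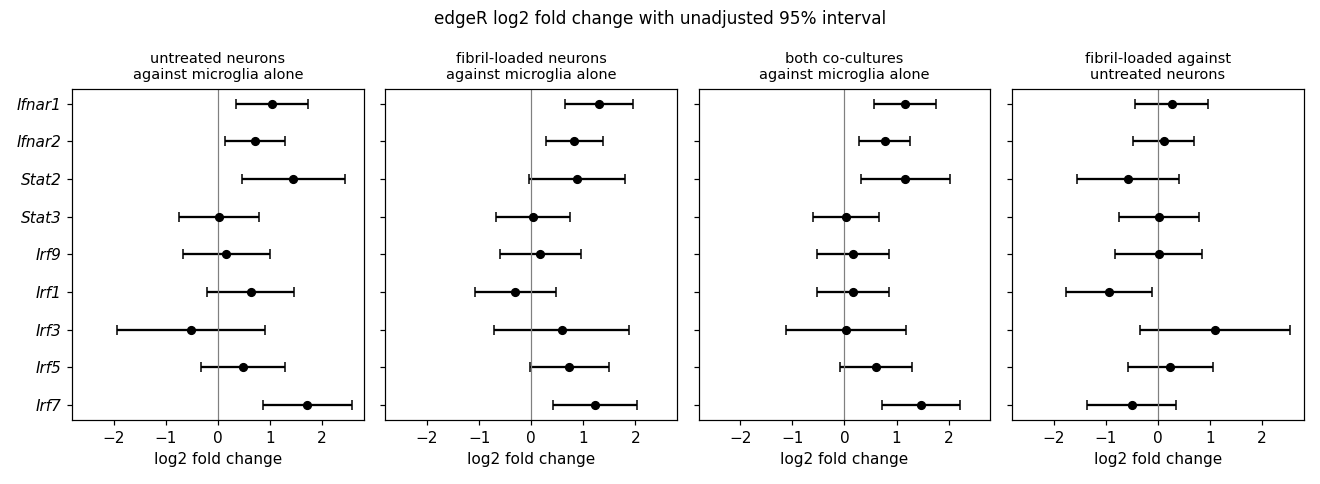
Log2 fold change of each of the 9 genes in edgeR (horizontal axis) for 4 comparisons, with bars for the unadjusted 95% interval and a line at 0. Against microglia alone the intervals of Ifnar1, Ifnar2 and Irf7 lie above 0 in all 3 panels, and between the 2 co-cultures that of Irf1, -1.77 to -0.11, is the only one that leaves out 0.

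Fibril loading itself was tested by setting the 2 co-cultures against each other. Of the 9 fold changes, 6 were positive, with a median of 0.02 beside 0.00 for all tested genes. No gene passed edgeR's adjusted rule, 0.00% of those tested, and every adjusted p of the 9 was 1.00. At an unadjusted p below 0.05, 2.64% of tested genes were higher and 1.30% lower with fibril-loaded neurons, and 1 of the 9, Irf1, was among the lower ones. None of the 9 had ranges that were apart in either direction, against 4.68% of tested genes. DESeq2 called 163 genes higher and 44 lower, none of them among the 9, and limma on the normalized table called 0 genes.

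Irf1 averaged 71.1 ± 31.2 CPM (n = 4) with fibril-loaded neurons, against 136 ± 40.7 CPM (n = 3) with untreated neurons, a log2 fold change of -0.94 (SE 0.40, edgeR unadjusted p = 0.0291). Fibril libraries 1, 2 and 3, at 46.1, 95.2 and 42.3 CPM, lay below all 3 untreated-neuron libraries, and fibril library 4, at 101 CPM, lay above the lowest of them, at 98.2 CPM. For Ifnar1 the difference was 0.26 (interval -0.43 to 0.96) and for Ifnar2 0.12 (interval -0.47 to 0.70). For Irf7 it was -0.50 (interval -1.36 to 0.36) and for Stat2 -0.57 (interval -1.55 to 0.41). These intervals hold differences of both signs, so they neither show that fibril loading altered these levels nor that it left them alike.

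The ratio of Irf7 to Irf3 counts was picked out from several ratios after its values were seen, and so is given with no test. Its values did not overlap between the co-cultures, although those of Irf7 and of Irf3 each did. The ratio was 2.42, 2.37, 2.11 and 1.34 in the libraries with fibril-loaded neurons, against 13.4, 4.59 and 4.25 in those with untreated neurons. The value of 13.4 rests on 161 Irf3 counts in untreated library 1. In microglia alone the ratio was 4.05, 0.82, 0.56 and 2.06, overlapping the fibril libraries. In the fibril libraries Irf3 averaged 41.0 ± 16.5 CPM, against 19.1 ± 8.13 CPM with untreated neurons, a log2 fold change of 1.10 (interval -0.34 to 2.54).

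The rest of the pathway was described through lists around the 9 genes, by counts in the same test over all genes. Genes of a list share the same libraries and were chosen with earlier results of these data known. Their counts of signs are therefore descriptions and no independent support for a direction. None of the 11 listed interferon ligand genes had a row in the count table, so their levels could not be read here. Of 10 tested other receptor chains and JAK kinases, edgeR called 0 in any comparison, while 2 with fibril-loaded and 6 with untreated neurons had an unadjusted p below 0.05 in either direction against microglia alone, beside 8.14% and 10.3% of all tested genes. DESeq2 called 0 and 1 of them, and 2 over both co-cultures, and limma on the normalized table called 0. The chains of the interferon gamma receptor had opposite signs. Ifngr2 averaged 141 CPM with fibril-loaded and 162 CPM with untreated neurons, against 85.6 CPM in microglia alone, and Ifngr1 averaged 87.7 and 95.6 CPM, against 175 CPM in microglia alone. The edgeR adjusted p of Ifngr2 was 0.479 and 0.208, and that of Ifngr1 0.322 and 0.404. Tyk2, the kinase on Ifnar1, averaged 87.0 ± 45.1 CPM with fibril-loaded neurons, 37.6 ± 5.84 CPM with untreated neurons and 84.1 ± 10.3 CPM in microglia alone. Its untreated-neuron libraries lay below all of microglia alone, with an edgeR adjusted p of 0.334. Those of Ifngr2, Il10ra, Il10rb and Il6ra lay above all of microglia alone. Of the 11276 tested genes, 614 were apart and lower in this comparison and 553 apart and higher.

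Outside the 9 genes, the microglial lineage factor Irf8 was the most abundant IRF, at 502, 485 and 486 CPM in the 3 groups.

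Of 9 tested kinases and adaptors upstream of Irf3 and Irf7, edgeR called 1, Ikbke, which encodes a kinase that phosphorylates both factors. Of all tested genes edgeR called 0.319% with fibril-loaded and 0.639% with untreated neurons. Ikbke rose to 283 ± 115 CPM with fibril-loaded and 268 ± 18.6 CPM with untreated neurons, against 46.1 ± 39.4 CPM in microglia alone. Its log2 fold change was 2.62 (SE 0.52, edgeR adjusted p = 0.0201) and 2.54 (SE 0.54, edgeR adjusted p = 0.0277). The first call was lost without microglia alone 1 or 2 or fibril 3 or 4, with adjusted p of up to 0.0878, and the second without microglia alone 1 or 2 or untreated 3, with adjusted p of up to 0.0845. Over both co-cultures the call held in 11 of 11 such fits, with adjusted p of 0.00727 to 0.0403. Without the 3 libraries of fewest genes Ikbke was called over both co-cultures and in neither co-culture alone. The partner kinase Tbk1 averaged 39.3, 44.6 and 24.2 CPM.

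Of 17 tested negative regulators edgeR called 0, with an unadjusted p below 0.05 in 2 with fibril-loaded and 3 with untreated neurons, beside 8.14% and 10.3% of all tested genes. DESeq2 called 0 in these 2 comparisons and 1 over both co-cultures, limma called 0, and edgeR with no low-count filter called 1 in each comparison with microglia alone. Usp18, the protease that detaches Jak1 from Ifnar2, averaged 29.7 ± 28.4 CPM with fibril-loaded and 23.8 ± 10.2 CPM with untreated neurons, against 3.05 ± 2.78 CPM in microglia alone, with edgeR adjusted p of 0.382 and 0.389. Socs3, the feedback inhibitor of Stat3 signalling, averaged 49.5 and 65.1 CPM, against 11.6 CPM in microglia alone, with edgeR adjusted p of 0.595 and 0.404.

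The genes driven by ISGF3 were positive against microglia alone in 28 of 28 tested in both co-cultures. Of all tested genes, 47.9% were positive with fibril-loaded and 47.7% with untreated neurons. The median log2 fold change of the 28 was 1.21 and 1.67 in the same order, beside -0.04 and -0.05 for all tested genes. edgeR called 1 of the 28 with fibril-loaded neurons, Rsad2, against 0.319% of all tested genes. With untreated neurons it called 6, Rsad2, Ifit3, Ddx58, Ifit3b, Mx1 and Oasl1, against 0.639%. The counts depended on the tool: DESeq2 called 6 with fibril-loaded and 13 with untreated neurons, limma called 3 and 6, edgeR with no low-count filter 12 and 14, and edgeR without the 3 libraries of fewest genes 2 and 2. At an unadjusted p below 0.05, 17 with fibril-loaded and 19 with untreated neurons were higher, against 4.25% and 4.66% of all tested genes. Rsad2, the antiviral radical enzyme viperin, rose to 544 ± 454 CPM with fibril-loaded and 737 ± 290 CPM with untreated neurons, against 112 ± 55.6 CPM in microglia alone. Its log2 fold change was 2.27 (edgeR adjusted p = 0.0259) and 2.71 (edgeR adjusted p = 0.00798). With untreated neurons the Rsad2 call held without any 1 library, and with fibril-loaded neurons it was lost without microglia alone 2, 3 or 4 or fibril 1, with adjusted p of up to 0.144. Ifit3, an RNA-binding partner of Ifit1, rose to 373 ± 196 CPM with untreated neurons, against 72.7 ± 38.1 CPM in microglia alone. Its call was lost without microglia alone 2 or 4 or untreated 1, with adjusted p of up to 0.127. The calls of Ddx58 and Mx1 were each lost in 6 of the 11 fits without 1 library, that of Ifit3b in 8 and that of Oasl1 in 9. All 4 were lost without microglia alone 1, 2 or 4, untreated 1 or fibril 4. Ddx58 was lost also without fibril 2, Mx1 without microglia alone 3, Ifit3b without microglia alone 3, untreated 3 or fibril 3, and Oasl1 without untreated 3 or fibril 1, 2 or 3. The adjusted p of these 4 genes reached up to 0.361, and the count with untreated neurons ran from 1 to 10 over the 11 fits without 1 library. Ifit3 and Ifit3b are near-identical copies, and how reads were split between them is not given in the sources used here.

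Between the co-cultures, 4 of the same 28 genes were positive and the median was -0.46, beside 49.8% and 0.00 for all tested genes. These 28 genes were read in the same 7 libraries and are not replicates of a group. edgeR, DESeq2 and limma called 0 of the 28. At an unadjusted p below 0.05 there was 1 of them, Ddx58 at -1.07, against 1.30% of all tested genes lower. Ddx58, the RNA sensor RIG-I, averaged 71.3 ± 42.1 CPM with fibril-loaded neurons, against 149 ± 107 CPM with untreated neurons. Over both co-cultures against microglia alone edgeR called 6 of the 28, Rsad2, Ifit3, Ifit2, Oasl2, Ifit3b and Mx1. The same rule called 1.03% of all tested genes. Leaving out 1 library gave 1 to 8 of the 28. Of the 28, DESeq2 called 12, limma 10 and edgeR with no low-count filter 15. In the 11 fits without 1 library the call of Rsad2 held throughout, that of Ifit3 was lost in 2, Ifit2 in 4, Ifit3b and Mx1 in 6 each and Oasl2 in 7. Ifit2 rose to 157 CPM over the co-cultures, against 28.9 CPM in microglia alone, and Oasl2 rose to 137 CPM, against 47.1 CPM.

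Genes known to follow interferon gamma and Irf1 were positive against microglia alone in 12 of 14 with fibril-loaded neurons. With untreated neurons 14 of 14 were, against 47.9% and 47.7% of all tested genes in the same order. The medians were 0.84 and 1.42, beside -0.04 and -0.05 for all tested genes. With untreated neurons edgeR called 1, the GTPase Gbp2, against 0.639% of all tested genes, DESeq2 called 3 and limma 1. With fibril-loaded neurons edgeR called 0, against 0.319%, DESeq2 called 1 and limma called 0. An unadjusted p below 0.05 was found for 2 with fibril-loaded and 5 with untreated neurons, beside 8.14% and 10.3% of all tested genes. Gbp2 averaged 33.3 ± 9.21 CPM with fibril-loaded neurons and rose to 67.3 ± 14.8 CPM with untreated neurons, against 8.39 ± 5.85 CPM in microglia alone. Its edgeR adjusted p was 0.213 and 0.0277, and the second was lost without 1 library in 6 of 11 fits, namely microglia alone 1, 2 or 4 or any untreated library, up to 0.134. Between the co-cultures 2 of the 14 were positive, with a median of -0.58, beside 49.8% and 0.00 for all tested genes. At an unadjusted p below 0.05 there was 1 of the 14, Tap1, against 1.30% of all tested genes lower and 2.64% higher. Tap1, the peptide transporter for class I antigen presentation, averaged 70.3 ± 16.4 CPM with fibril-loaded neurons, against 139 ± 40.8 CPM with untreated neurons. Its log2 fold change was -0.98 (edgeR unadjusted p = 0.0120, adjusted p = 1.00). The ranges of Tap1 and of Gbp2 did not overlap between the co-cultures, and ranges were apart in either direction in 4.68% of all tested genes.

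Of 12 tested Stat3 targets, 11 were positive with fibril-loaded and 10 with untreated neurons, with medians of 0.80 and 0.81. Of all tested genes 47.9% and 47.7% were positive, with medians of -0.04 and -0.05. With untreated neurons edgeR called 1, the interleukin 4 receptor chain Il4ra, against 0.639% of all tested genes. DESeq2 and limma also called 1 there. With fibril-loaded neurons edgeR called 0, against 0.319%, DESeq2 called 1 and limma called 0. An unadjusted p below 0.05 was found for 5 with fibril-loaded and 7 with untreated neurons, beside 8.14% and 10.3% of all tested genes. Il4ra averaged 117 ± 34.2 CPM with fibril-loaded neurons and rose to 193 ± 44.4 CPM with untreated neurons, against 57.6 ± 28.5 CPM in microglia alone. Its edgeR adjusted p was 0.382 and 0.0371, and the second was lost in 7 of 11 fits without 1 library (microglia alone 1, 2 or 3, untreated 1 or 2, fibril 2 or 4), up to 0.134. Stat3 itself averaged 169.6, 168 and 166 CPM with fibril-loaded neurons, with untreated neurons and in microglia alone.

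**Figure D3:**
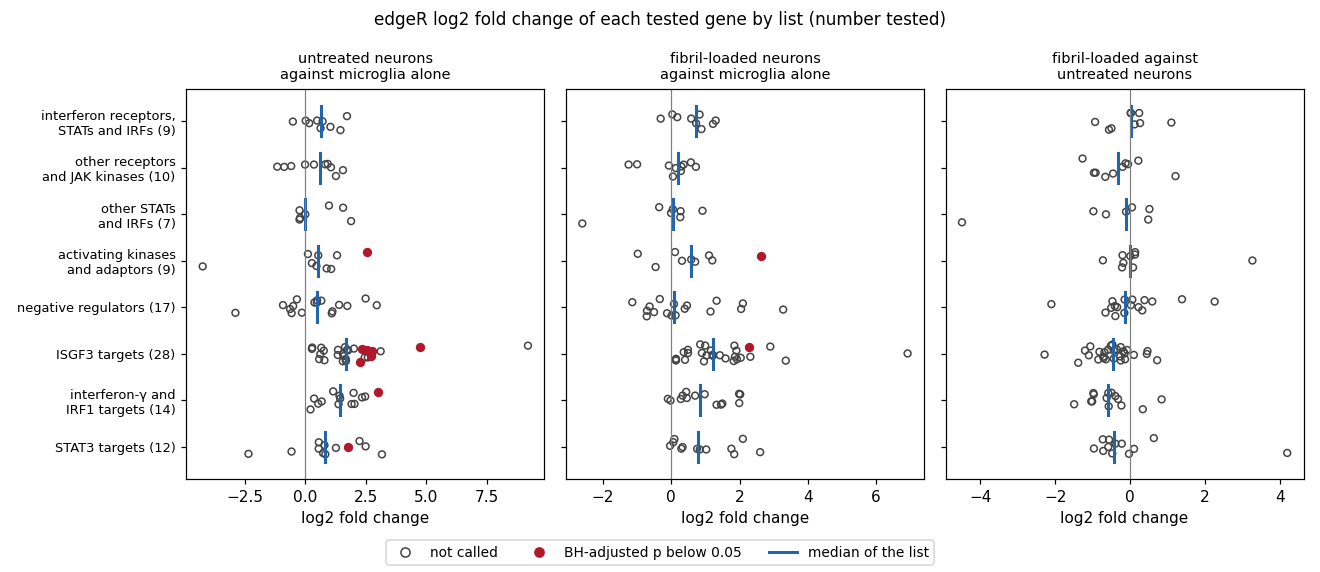
Log2 fold change in edgeR (horizontal axis, a scale of its own in each panel) of every tested gene of 8 lists, for 3 comparisons, with filled red points for genes called at an adjusted p below 0.05 and a blue line at the median of each list. The 28 ISGF3 targets lie right of 0 against microglia alone, and 4 of them do so between the co-cultures.

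How close Ifnar1 and Irf7 stood to the threshold depended on the settings. Over both co-cultures against microglia alone, each passed in 5 of 9 other fits: with no low-count filter, DESeq2, limma, robust dispersion, and a block from the library codes. Leaving out 1 library moved the edgeR adjusted p of Ifnar1 between 0.0244, without microglia alone 3, and 0.148, and it passed also without fibril 2. That of Irf7 moved between 0.0268, without microglia alone 4, and 0.159, and it passed also without fibril 2. The log2 fold change itself stayed between 1.00 and 1.46 for Ifnar1 and between 1.34 and 1.83 for Irf7 in those fits.

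**Figure D4:**
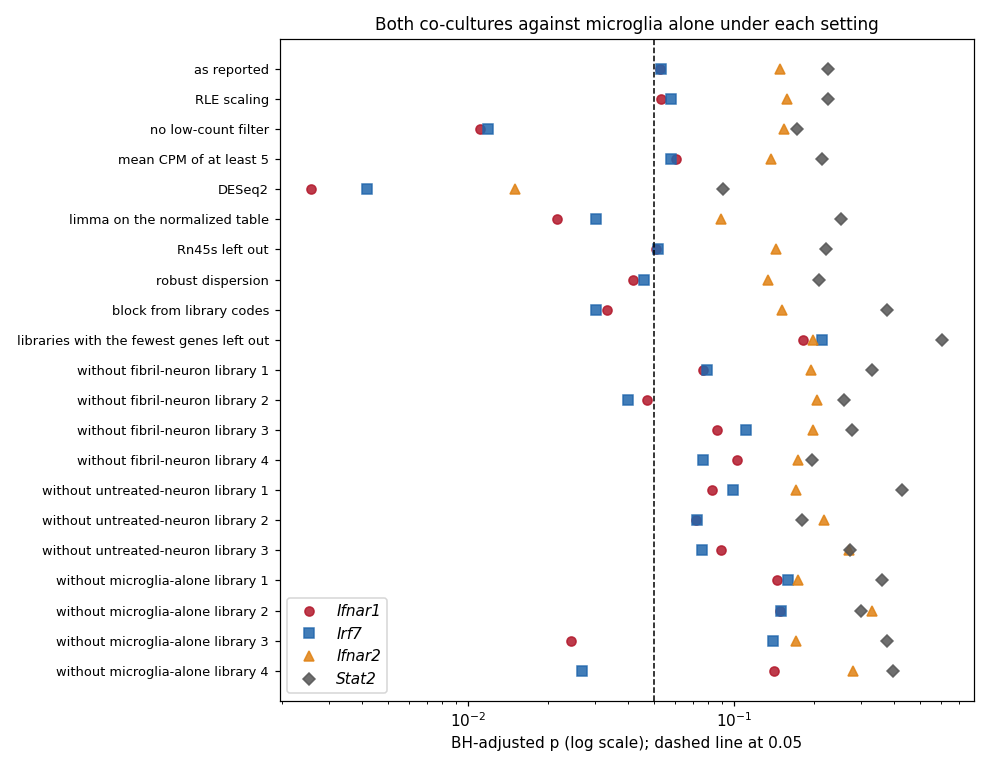
BH-adjusted p (horizontal axis, log scale) of Ifnar1, Irf7, Ifnar2 and Stat2 for both co-cultures against microglia alone, in the fit reported and in each other setting (rows), with a dashed line at 0.05. Ifnar1 and Irf7 lie near the line, at 0.0525 and 0.0530 as reported, while Stat2 lies right of it in every row.

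Finally, the genes whose levels followed the receptor chains most closely were listed by the correlation of log2(CPM + 1) over the 11 libraries, among the 7535 genes that averaged 10 CPM or more. For Ifnar2, the most abundant of the 9, these were Skil (Pearson's r = 0.95, Spearman's rho = 0.90), Tgm2 (r = 0.95, rho = 0.92) and Pitpnc1 (r = 0.95, rho = 0.93). The nearest to Ifnar1, chosen after values were seen, were Cpd (r = 0.98, rho = 0.98) and Ehd1 (r = 0.95, rho = 0.98), and the nearest to Irf7 was Nfkb2 (r = 0.92, rho = 0.88). The 11 libraries share the group differences described above, and each r is the highest of many, so these values describe the libraries only.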

How the data were processed

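Expression was measured in 11 libraries of mouse microglia with a forward 3′ mRNA kit on column-purified RNA, per the labels' protocols. STAR, Partek and DESeq2, without versions, and the build mm10 appear in the submitters' processing notes. A count table, with raw counts of each gene symbol, was deposited by the authors, and strand use and duplicate removal are not given in the sources used here. The authors also deposited a normalized table, used here as a score: 97.8% to 100% of its values in a library lay within 0.51 of the count divided by 1 size factor. Groups come from the labelled treatment group, and libraries are numbered within a group in order of deposition.

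Differences were tested two-sided by the quasi-likelihood method of edgeR 4.0.16 (R 4.3.3), after filterByExpr and TMM scaling, in 1 fit of the 11 libraries with no term but group. P-values were adjusted after Benjamini and Hochberg (BH) over the 11276 genes tested, and genes below 0.05 were called. Of the 16934 genes in the table, 2828 were at 0 in every library. Both co-cultures against microglia alone is the mean of the 2 co-culture coefficients. CPM use library sizes after TMM adjustment, and SD are over libraries. The common biological coefficient of variation was 1.15, against 0.31 (Ifnar2) to 0.63 (Irf3) for the 9 genes. The code was tested on simulated counts. Total counts ran from 8253070 to 16802451.

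The 9 genes and all lists were chosen with earlier results of these data known, so no list is independent support for a direction. Lists are described by counts and medians; results of 1 list are not reported here. In them, every called gene was named (up to 8 per list and comparison), or else some of the 3 with the smallest p; Tbk1 and Irf8 were added for their role. Genes were located in GENCODE vM21 and promoters taken from RefSeq, both on GRCm38, whose coordinates are those of mm10. Alternatives were RLE scaling, 2 other filters on low counts, DESeq2 1.42.0, limma 3.58.1 on log2(value + 1) of the normalized table, the groups compared alone, Rn45s left out, robust dispersion, a block from the library codes in the titles, and each library left out. Added after seeing the data were the 3 libraries with the fewest genes left out together (library 1 of each group) and exact permutation tests.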

Additional observations from a re-analysis of the deposited data

How the results depend on the processing

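Fibril-loaded neurons against microglia alone gave 36 called genes and 0 of the 9 interferon genes, with 23 to 42 genes and 0 to 1 of the 9 when each library was left out. With no low-count filter these were 164 and 1, in DESeq2 273 and 2, and with the block from the library codes 66 genes. Untreated neurons against microglia alone gave 72 genes (52 higher, 20 lower) and 0 of the 9, with 32 to 76 genes and 0 to 1 of the 9 when each library was left out. The genes numbered 234 with no low-count filter, 47 at a mean of at least 5 CPM, 503 in DESeq2 (180 higher, 323 lower), 41 with the groups compared alone and 29 without the 3 libraries of fewest genes. Irf7 was then 1 of the 9 to pass with no filter, in DESeq2 and with the block. Both co-cultures against microglia alone gave 116 genes and 0 of the 9, with 55 to 106 genes and 0 to 2 of the 9 when each library was left out. The genes numbered 341 with no filter, 583 in DESeq2, 177 with the block and 59 without the 3 libraries of fewest genes. Of the 9, 3 passed in DESeq2 and 2 with no filter, limma, robust dispersion or the block. Between the co-cultures 0 genes passed, against 5 with no filter, 207 in DESeq2, 1 without the 3 libraries of fewest genes and 0 to 1 when each library was left out. The cause of these shifts was not tested.

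Signs turned for genes near 0. Without the 3 libraries of fewest genes, Stat3 against microglia alone was -0.0445 with fibril-loaded neurons, -0.181 with untreated neurons and -0.113 over both, and Irf3 over both was -0.0905. With the block, Stat3 was -0.0149 with untreated neurons against microglia alone. Between the co-cultures Stat3 was -0.0215 in limma and -0.0186 as a difference of log2 CPM, Irf9 was -0.00478 and -0.00173 in the same settings and -0.600 without the 3 libraries, and Ifnar2 was -0.0778 without them. Leaving out each library gave ranges on both sides of 0. With fibril-loaded neurons against microglia alone these were -0.21 to 0.20 for Stat3 and -0.17 to 0.38 for Irf9. With untreated neurons against microglia alone they were -0.25 to 0.16 for Stat3 and -0.0690 to 0.430 for Irf9. Between the co-cultures they were -0.15 to 0.19 for Stat3, -0.33 to 0.24 for Irf9, -0.96 to 0.0021 for Stat2 and -0.0026 to 0.38 for Irf5. Over both co-cultures they were -0.23 to 0.17 for Stat3, -0.27 to 0.35 for Irf3, -0.0059 to 0.36 for Irf9 and -0.0175 to 0.414 for Irf1. The signs of Ifnar1, Irf7 and, against microglia alone, of Ifnar2 and Stat2 held in every setting run.

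The library codes in the titles recur in sets. The 10 same-set pairs had correlations of deviations of -0.05 to 0.09 (median 0.047), against -0.10 to 0.08 (median -0.028) in 30 other pairs. Of 11 libraries, 4 correlated best with a library of their own set. The labels do not say what a set is, so the sets were not taken as pairing in the main fit. Whether a set shares a culture or day was not tested. In exact two-sided permutation tests of log2 CPM over both co-cultures against microglia alone, unadjusted among 36, Ifnar1 and Ifnar2 reached 0.00303, the smallest possible, Irf7 0.00606 and Stat2 0.0273. Each of the 9 genes had at least 98 counts in every library. With 3 or 4 libraries a group, the biological coefficient of variation ran up to 0.63, for Irf3, which also had the lowest count. The parts of count depth and of spread between libraries in the width of the intervals were not tested.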
